A study of Mus musculus with 20 samples.

Results

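The genes described here are the hair keratins, the root sheath keratins and the keratin-associated proteins of mouse skin. They were taken by gene symbol, as every Krtap gene and a fixed series of 23 hair and root sheath Krt symbols, of which 22 were in the tables (Krt72 was not). This gave 47 of the 19807 genes measured. Of these, 9 were type I hair shaft keratins, 5 were type II hair shaft keratins, 4 were type I inner root sheath keratins, 4 were type II keratins of the inner root sheath and companion layer, and 25 were keratin-associated proteins. RNA-seq was done separately on dermis and epidermis that had been parted with EDTA. The samples were healed wounds of control mice (WT wound, genotype wild type, 3 libraries per tissue), healed wounds of K14-CreERT2; LSL-Shh mice (Shh wound, 3 libraries per tissue) and unwounded wild type skin of E14.5 embryos (4 libraries per tissue). The comparisons ask how far wounds in which the epidermis was made to express Shh, a condition that brings new follicles into a small wound, differ from ordinary small wounds and from skin at the time follicles begin to form. The authors showed these new follicles at later times after wounding than the time sampled here.

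Both wound groups came from mice of mixed strain, 4 to 5 weeks old, 2 days after the scab had come off, and both had been given tamoxifen. In the Shh group tamoxifen lets Cre under the K14 promoter act in basal keratinocytes, and Shh is then made from a transgene. The controls were littermates, whose own alleles are not given further. Libraries are named by group and number (WT-9097, WT-9098 and WT-9229; Shh-9101, Shh-9231 and Shh-9233; E14.5-3, -4, -5 and -7). Whether a library held 1 animal or a pool of wounds is not stated. The authors' figure legend gives more wounds and mice per condition than there are wound libraries per group. The p-values thus measure only the spread between these libraries. In bulk tissue, fewer cells of a type and less RNA per cell cannot be told apart.

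The hair shaft is built by matrix cells at the base of the follicle. As these move up they make type I and type II keratins, which pair into filaments, and then keratin-associated proteins, cysteine-rich or glycine- and tyrosine-rich, which cross-link the filaments into a hard fibre. The inner root sheath, a tube that moulds the shaft, uses keratins of its own, Krt25 to Krt28 paired with Krt71 to Krt74, and is hardened with trichohyalin. The companion layer, which lies between the inner and outer root sheaths, is marked by Krt75. None of these genes is a keratin of interfollicular epidermis, which uses Krt5, Krt14, Krt1 and Krt10.

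Members sit in clusters. On build NCBIM37, as deposited, 25 of them lay on chromosome 11 between 99176830 and 99966940, 9 on chromosome 15 between 101261921 and 101632774, 12 on chromosome 16 between 88610954 and 89571428, and 1, Krtap12-1, on chromosome 10 at 77183331 to 77184001 on the plus strand. In GENCODE vM21, 22 of the 46 members that could be matched there had 1 exon. Krtap12-1 lay inside Tspear on the same strand, so that reads of unspliced Tspear RNA could be counted with it, and 14.7% of its 50-base stretches also occurred in other genes. Close relatives share sequence. Of all 50-base stretches of their transcripts, 37.7% for Krt81, 36.9% for Krt83 and 43.3% for Krt86 also occurred in another gene, and so did 17.8 to 33.1% for Krt31, Krt33a, Krt33b and Krt34, so values within these groups are uncertain as to which member they belong to. The identifier deposited as Krt83 is named Krt87 in GENCODE vM21. Overlap was 0% for Krt75, Krt82, Krt84, Krtap7-1, Krtap8-1 and Krtap11-1, at most 2.7% for Krt35, Krt71 and Krt73, and 10.9 and 11.1% for Krt25 and Krt27.

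RefSeq (GRCm38.p6) gave a start site for 35 members. The 60 bases before the start are shown for 10 of them, because they show a feature that most members share, beside 2 members, Krt75 and Krt84, that lack this spelling. Capitals mark TATAAA, the TATA box spelling, on the gene's own strand.
Krt25 (chr11:99322952-99323011, minus strand): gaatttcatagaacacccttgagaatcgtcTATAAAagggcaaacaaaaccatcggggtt
Krt26 (chr11:99337966-99338025, minus strand): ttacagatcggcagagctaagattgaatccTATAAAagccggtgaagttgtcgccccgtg
Krt28 (chr11:99374904-99374963, minus strand): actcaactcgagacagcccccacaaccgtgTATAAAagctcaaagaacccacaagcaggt
Krt73 (chr15:101802361-101802420, minus strand): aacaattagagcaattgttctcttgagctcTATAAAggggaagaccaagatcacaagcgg
Krt71 (chr15:101743098-101743157, minus strand): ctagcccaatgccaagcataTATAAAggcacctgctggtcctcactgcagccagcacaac
Krt32 (chr11:100088270-100088329, minus strand): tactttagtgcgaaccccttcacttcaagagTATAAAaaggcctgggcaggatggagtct
Krtap8-1 (chr16:89487953-89488012, minus strand): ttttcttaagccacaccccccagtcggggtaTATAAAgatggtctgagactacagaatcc
Krtap11-1 (chr16:89571184-89571243, minus strand): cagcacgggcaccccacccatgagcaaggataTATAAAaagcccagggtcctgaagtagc
Krt75 (chr15:101573905-101573964, minus strand): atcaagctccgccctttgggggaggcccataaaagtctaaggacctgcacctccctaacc
Krt84 (chr15:101532821-101532880, minus strand): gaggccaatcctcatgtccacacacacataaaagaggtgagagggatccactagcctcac

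In Krt25, Krt26, Krt28 and Krt73 the box began 30 bases before the start, in Krt32 and Krtap8-1 29 bases, in Krtap11-1 28 bases and in Krt71 40 bases. Over the 35 members, 24 (68.6%) had a sense TATAAA beginning 20 to 40 bases before the start, against 1.99% of all 32851 RefSeq promoters. Anywhere on either strand of the whole RefSeq promoter window, which reaches farther upstream and past the start, it was found in 28 of 35 members (80%) and in 13.6% of all promoters. The keratin-associated proteins had the box at 20 to 40 bases in 15 of 19 and the keratins in 9 of 16. These are descriptions of the letters in these windows.

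Levels are given in CPM, the reads of a gene scaled to a common library total. The libraries differed widely in depth, from 1407498 to 3752046 reads in WT wound dermis, 3920969 to 8002999 in Shh wound dermis, 2135041 to 7354990 in WT wound epidermis, 7167771 to 10810590 in Shh wound epidermis and 15663677 to 18745431 in E14.5 skin. One read was worth 0.0533 to 0.71 CPM. The separation of tissues held in all 12 wound libraries, where 8 keratinocyte markers summed to 1676 to 3415 CPM in dermis and 89205 to 113355 CPM in epidermis, and 8 fibroblast markers to 231460 to 359922 CPM in dermis and 647 to 3498 CPM in epidermis. Few genes were detected in 4 wound libraries: WT-9229 dermis (11895), Shh-9233 dermis (12044), WT-9097 epidermis (11179) and WT-9229 epidermis (14178), against 17055 to 18734 in the other 8. In 2 of these, Shh-9233 dermis and WT-9097 epidermis, only 3.3% and 2.69% of detected genes had 1 to 5 reads, against 13.8 to 22.4% in the other 10 wound libraries. What this does to members listed at 0 in those libraries was not tested.

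One library stood apart before any comparison. The 47 members summed to 2420 CPM in WT-9097 dermis, to 34.1 CPM in WT-9098 dermis and to 17.1 CPM in WT-9229 dermis. The Shh wound dermis libraries gave 25.9 CPM (Shh-9101), 33.6 CPM (Shh-9231) and 236 CPM (Shh-9233). WT-9097 was thus 10.2 times the next highest, and the other 2 WT libraries fell within or below the range of the Shh group. Every one of the 47 members was highest in WT-9097 among the 6 wound dermis libraries, where 20.1% of all detected genes were highest. Of the members, 14 had reads in no other of the 6, and the same count over all genes was not made. In epidermis the sums were 564, 329 and 16.9 CPM in WT-9097, WT-9098 and WT-9229, and 126, 171 and 125 CPM in Shh-9101, Shh-9231 and Shh-9233. Here the low library was WT-9229, and the Shh libraries lay close together between it and the other 2 WT libraries. E14.5 skin had 0.587 to 1.55 CPM in dermis and 4.04 to 7.32 CPM in epidermis, below every wound library of the same tissue.

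**Figure D1:**
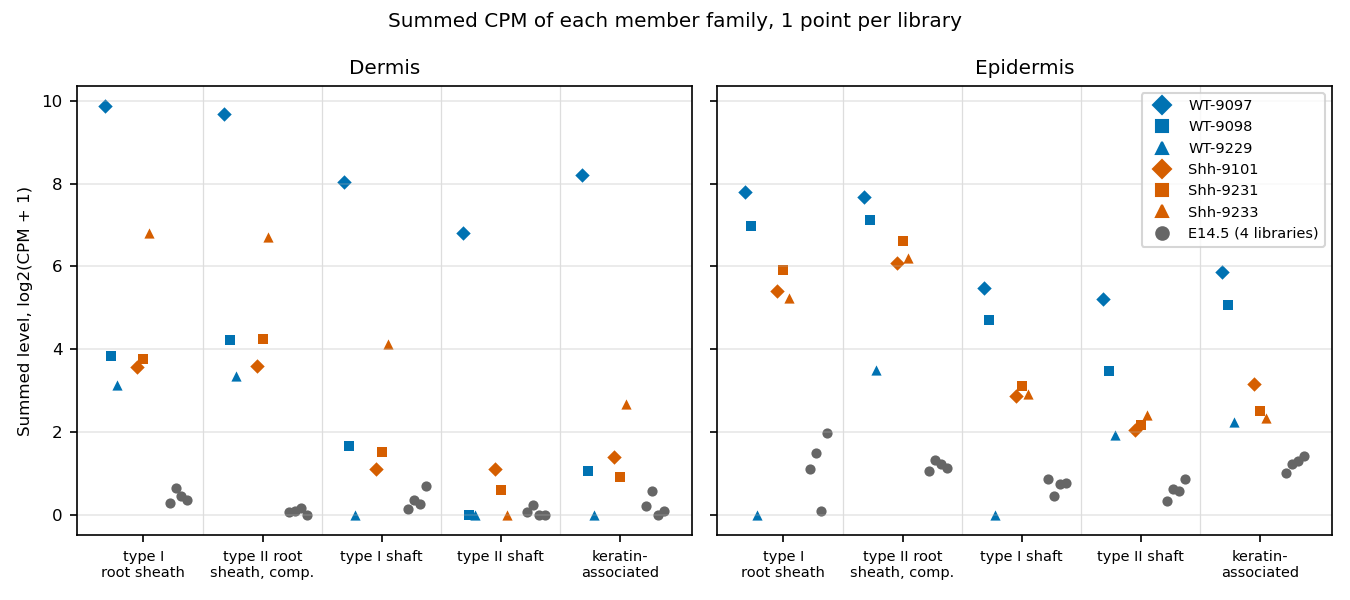
Summed level of each of the 5 member families in dermis (left) and epidermis (right), as log2(CPM + 1), with 1 point for each library, coloured by group, with a marker for each wound number. WT-9097 dermis lies above all other dermal libraries in every family, WT-9229 epidermis lies at or near the bottom of the wound libraries, and the E14.5 libraries lie lowest except where a wound library is at 0.

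Summed markers of keratinocytes and of the bulge and outer root sheath were not highest in WT-9097 dermis, whereas those of sebocytes were. It had 2809 CPM of keratinocyte markers where the other 5 wound dermis libraries had 1676 to 3415 CPM, 196 CPM of bulge and outer root sheath markers against 189 to 290 CPM, and 23.6 CPM of sebocyte markers against 2.84 to 16.8 CPM. Much of the bulge and outer root sheath sum was Cd34 and Lgr5 (69 and 60.1 CPM in WT-9097 dermis). In wound epidermis these had only 0 to 4.22 and 0.468 to 10 CPM. The dermal sum thus cannot show how much bulge or outer root sheath epithelium a library held. Single markers were highest in WT-9097 among the 6 wound dermis libraries for 4 of 8 keratinocyte genes (Krt15, Cdh1, Trp63 and Dsp), 3 of 7 sebocyte genes, 2 of 7 melanocyte genes, 1 of 7 bulge genes (Lhx2) and 0 of 8 fibroblast genes. Their part in the members' levels was not tested. Of the genes that act beside the members, all 11 other genes of shaft and sheath and 11 of 14 regulators were highest there, the exceptions being Prdm1, Msx1 and Bmpr1a. Tchh, the gene of trichohyalin, had 4041 CPM in WT-9097 dermis and 3.55 to 110 CPM in the other 5. S100a3, a calcium-binding protein of the hair cuticle, had 98.7 CPM against 0 to 3.32 CPM, Padi3, an enzyme that modifies trichohyalin, 79.4 CPM against 0 to 19.1 CPM, and Dsg4, a desmoglein of the shaft, 48.6 CPM against 0 to 2.55 CPM. The transcription factors Hoxc13 and Foxn1, both needed for a normal shaft, had 7.87 and 12.2 CPM there, against at most 0.983 and 2.93 CPM.

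Inner root sheath keratins had the most reads. Krt71, the type II keratin found in all layers of the inner root sheath, had 660, 9.86 and 7.82 CPM in WT-9097, WT-9098 and WT-9229 dermis, and 7.05, 11.7 and 86.5 CPM in Shh-9101, Shh-9231 and Shh-9233 dermis. Its values in epidermis were 174, 97.9 and 1.87 CPM in the WT wounds and 37.5, 61 and 31.7 CPM in the Shh wounds. In both tissues the Shh values fell inside the range of the WT values except for Shh-9101 dermis, which was just below it. Krt25, a type I partner, had 395, 8.26 and 4.26 CPM in WT dermis and 6.23, 7 and 49.2 CPM in Shh dermis. The epidermal values of Krt25 were 80.3, 54 and 0 CPM in WT wounds and 23.7, 30.2 and 18.6 CPM in Shh wounds. Pattern and order of the libraries were nearly those of Krt71, and the reads of Krt25 were 0.461 to 0.884 times those of Krt71 in the 11 wound libraries with at least 3 reads of each.

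Krt27, Krt28 and Krt26, the other type I keratins of the inner root sheath, followed the same libraries. Krt27 had 260, 2.4 and 3.55 CPM in WT dermis against 2.29, 2.37 and 35.7 CPM in Shh dermis, and 35.5, 33.7 and 0 CPM in WT epidermis against 9.71, 14 and 9.49 CPM in Shh epidermis. Krt28 reached 145 CPM and Krt26 132 CPM in WT-9097 dermis. All 4 type I root sheath keratins had 0 reads in WT-9229 epidermis, which allows up to 1.41 CPM for each at 3 reads.

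Krt73, a type II keratin of the inner root sheath cuticle, behaved differently in epidermis. Its epidermal levels were 30.8, 34.9 and 7.03 CPM in WT wounds and 28.2, 31.5 and 37.1 CPM in Shh wounds. Apart from WT-9229 these values lay between 28.2 and 37.1 CPM, over libraries in which Krt71 ranged from 31.7 to 174 CPM. Over the 10 wound libraries with at least 3 reads of Krt71, Krt73, Krt35 and the type I root sheath keratins, the reads of Krt73 per read of Krt71 ran from 0.165 to 1.17, a 7.09-fold range. Over the same libraries the range was 5.59-fold for Krt35, 3.77-fold for Krt28, 3.73-fold for Krt26, 2.04-fold for Krt27 and 1.92-fold for Krt25. In WT-9229 epidermis Krt73 stood at 3.75 reads per read of Krt71, from 15 and 4 reads. Krt75, of the companion layer, was low everywhere, at 15, 1.6 and 1.42 CPM in WT dermis, 1.15, 1.25 and 3.32 CPM in Shh dermis, 0, 3.54 and 0 CPM in WT epidermis and 0.74, 3.06 and 3.63 CPM in Shh epidermis. Krt74, which in human follicles marks the Huxley layer of the inner root sheath, stayed at or below 1.41 CPM in every library but WT-9097 dermis (6.79 CPM).

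Of the hair shaft keratins, Krt35, a type I keratin made early in the matrix and cuticle, had the highest level per kilobase of exon in WT-9097 dermis (41.5 CPM per kb). In CPM it had 99.4, 1.33 and 0 CPM in WT dermis, 0.492, 1 and 5.87 CPM in Shh dermis, 4.69, 8.7 and 0 CPM in WT epidermis and 2.5, 5 and 4.46 CPM in Shh epidermis. The cortex keratins Krt31, Krt33a and Krt34, with their partners Krt81, Krt83 and Krt86, had 17.2 to 42.2 CPM in WT-9097 dermis and at most 0.375 CPM in the other 5 wound dermis libraries. Krt33b, which shares sequence with the first 3, had 17.2 CPM in WT-9097 dermis, 5.61 CPM (22 reads) in Shh-9233 dermis and no read in the other 4. Krt82, a type II keratin of the shaft cuticle, had 22.2 CPM in WT-9097 dermis and at most 0.492 CPM elsewhere in dermis. Its epidermal values were 18.4, 2.45 and 0 CPM in WT wounds and 0.74, 0.919 and 0.837 CPM in Shh wounds, so that the Shh libraries agreed closely while the WT libraries did not.

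Keratin-associated proteins were seen mostly in 3 libraries. WT-9097 dermis had reads of all 25, with Krtap7-1 (56.5 CPM) and Krtap8-1 (39 CPM), both of the glycine- and tyrosine-rich class, and Krtap11-1 (41.1 CPM), of the cysteine-rich class, at the top. Their summed level was 296 CPM there, at most 5.36 CPM in the other wound dermis libraries, 57.2 and 32.8 CPM in WT-9097 and WT-9098 epidermis, 3.75 CPM in WT-9229 epidermis and 4.05 to 7.96 CPM in Shh epidermis. WT-9097 and WT-9098 epidermis did not hold the same members. Krtap7-1 and Krtap8-1 had no read in WT-9097 epidermis and 1.5 and 2.86 CPM in WT-9098 epidermis, whereas Krtap3-2, Krtap9-3 and Krtap4-1 had 12.8, 8.44 and 8.26 CPM in the former and 3.13, 2.45 and 1.5 CPM in the latter. WT-9097 epidermis is 1 of the 2 libraries with very few genes at low counts, and its part in these zeros was not tested.

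**Figure D2:**
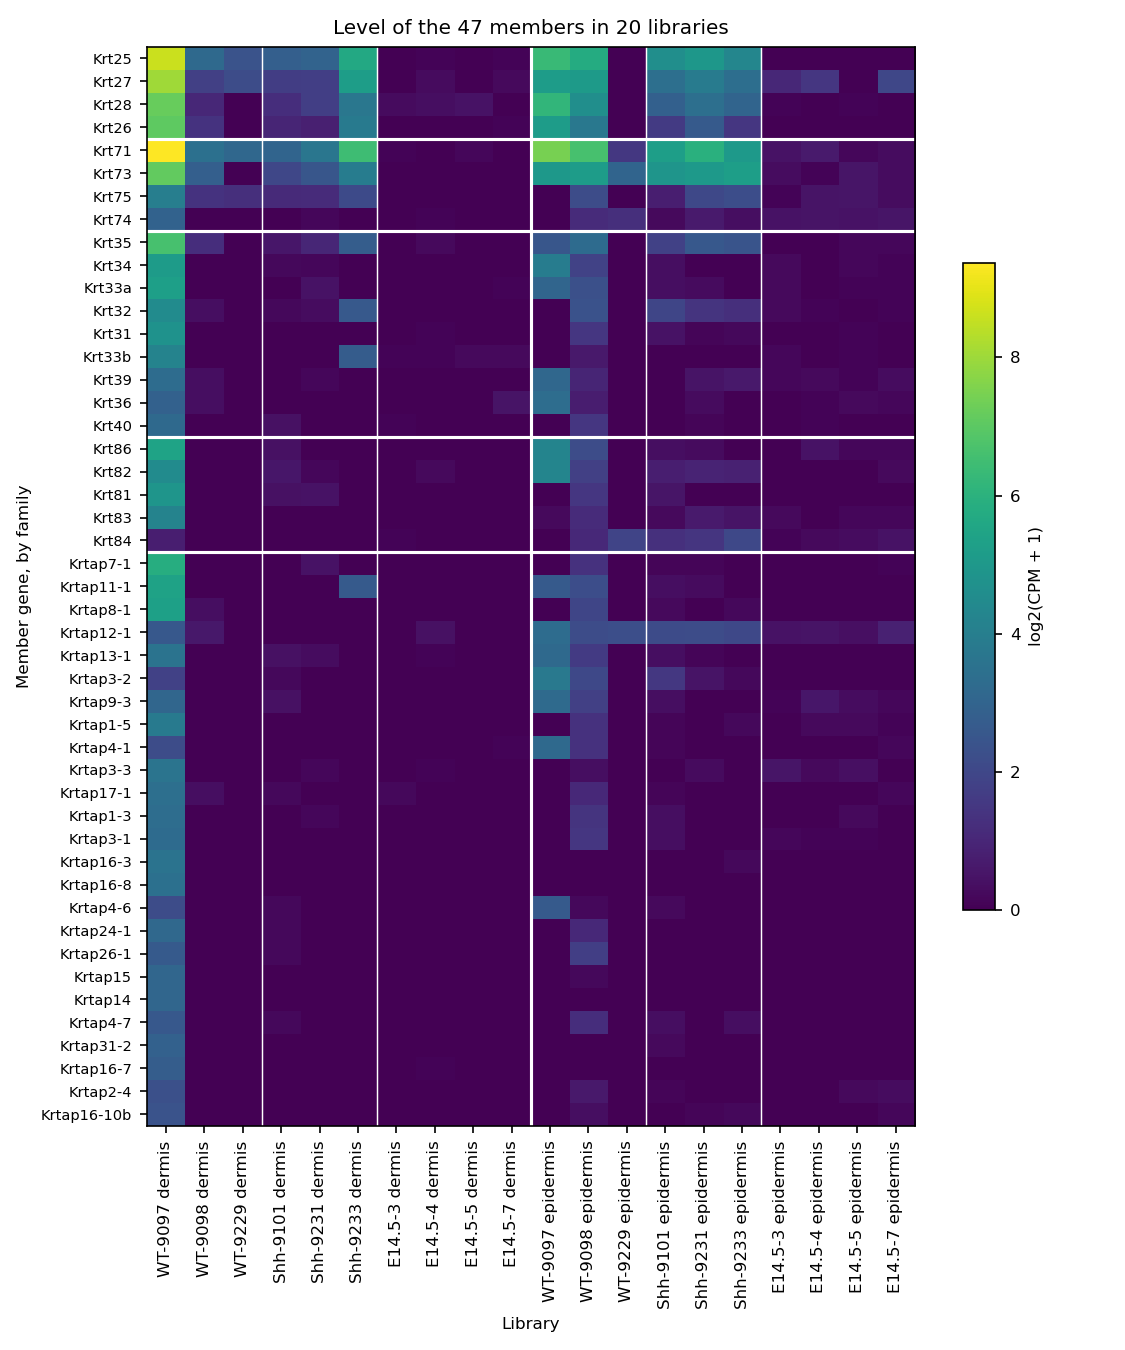
Level of all 47 members (rows, grouped by family) in the 20 libraries (columns, dermis then epidermis), as log2(CPM + 1) on the colour scale. Every member is detected in WT-9097 dermis, the root sheath keratins in the top rows extend to most wound libraries, and the lower rows of keratin-associated proteins are mostly near 0 outside WT-9097 dermis and WT-9097 and WT-9098 epidermis, with Krtap12-1 an exception in all 6 wound epidermis libraries.

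Genes were compared with each other per kilobase of exon. Krt71 had the highest level of the members in 10 of the 12 wound libraries, and the order below it differed between libraries. In WT-9097 dermis Krt71 had 302 CPM per kb, Krt25 199, Krt27 168, Krtap7-1 91, Krt28 89.2 and Krtap8-1 67.9 CPM per kb. WT-9098 epidermis gave 44.8 CPM per kb for Krt71, 27.1 for Krt25, 21.8 for Krt27, 16.1 for Krt73 and 14.6 for Krt28, with Krtap12-1 next at 5.39 CPM per kb. In Shh-9231 epidermis the values were 27.9 for Krt71, 15.2 for Krt25 and 9.02 CPM per kb for Krt27, with Krt73 between the last 2. WT-9097 epidermis had Krt28 (43.8 CPM per kb) above Krt25 (40.4), Shh-9101 epidermis Krt73 (13.0) above Krt25 (11.9), and Shh-9233 epidermis Krt73 (17.1) above Krt71. In WT-9229 epidermis Krtap12-1 (5.71 CPM per kb) was highest. Lengths are from GENCODE vM21, which is not the annotation the reads were counted on.

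The balance between root sheath and shaft differed between libraries. The 8 root sheath and companion layer keratins took 72.4% of member reads in WT-9097 dermis (95% Wilson interval 71.3 to 73.5%), 90.6% in WT-9098 dermis and 100% in WT-9229 dermis (24 reads). In Shh dermis they took 84.8, 90.3 and 90.7%, so that the dermal shares of the 2 groups overlapped. In epidermis they took 75.7, 79.4 and 61.1% in WT-9097, WT-9098 and WT-9229 (36 reads in the last) and 86.2, 90.8 and 88% in Shh-9101, Shh-9231 and Shh-9233. Shh-9233 dermis, the second highest dermal library, had reads of 11 members, 7 of them root sheath or companion layer keratins, the others being Krt35 (5.87 CPM), Krt32 (5.1 CPM), Krt33b (5.61 CPM) and Krtap11-1 (5.36 CPM), with none under 13 reads. No test was made of these shares, which rest on 3 libraries a group, and the intervals cover counting error only.

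Shh wounds were then compared with WT wounds. In dermis no member passed (limma on log2(CPM + 1), Benjamini-Hochberg over all genes, adjusted p under 0.05, here called), out of 47 tested, and no gene of the 19430 tested did either (0% higher, 0% lower). Without adjustment 0 members and 546 genes were under 0.05. Neither edgeR nor DESeq2 on the recovered reads called a member, although 37 (78.7%) and 15 (31.9%) members were under 0.05 before adjustment with these tools, all lower in Shh, against 3.22 and 3.47% of all genes in either direction. Over all genes edgeR called 0 and DESeq2 called 4 higher and 7 lower. The median log2 fold change of the members was -0.98, that of all genes 0.13. It turned to 0.14 for the 33 members with a read once WT-9097 was left out, beside 0.23 for all genes, so that the direction rested on that library. Krt71 had 35.1 ± 44.6 CPM in Shh and 226 ± 376 CPM in WT wound dermis (mean ± SD, n = 3 each), a log2 fold change of -0.94 ± 1.48 (SE).

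The 5 dermal members with the smallest p among those with a mean of at least 1 CPM were Krt36, Krtap8-1, Krt39, Krtap17-1 and Krt31. Their log2 fold changes were -1.08, -1.89, -1.16, -1.18 and -1.59, each with an adjusted p of 0.958 by limma. Krt31 was listed at 0 in all 3 Shh libraries and in WT-9098 and WT-9229, against 26.1 CPM in WT-9097.

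In epidermis none of 44 members tested was called between Shh and WT wounds, nor was any of 19252 genes (0% in either direction). Without adjustment 1 member, Krt33a, and 1846 genes were under 0.05. The tools edgeR and DESeq2 called no member and had 12 (27.3%) and 10 (22.7%) under 0.05 before adjustment, all lower in Shh, against 4.62 and 4.52% of all genes in either direction. Over all genes edgeR called 6 higher and DESeq2 59 higher and 5 lower. The limma fit of all 3 groups of the tissue called 147 genes higher and 1 lower, and again no member. That the main fit called no gene thus does not show that none changed. The members had a median log2 fold change of -0.35, all genes 0.21. Krt33a had 7.32, 3.94 and 0 CPM in WT wounds and 0.278, 0.204 and 0 CPM in Shh wounds, a log2 fold change of -1.58 ± 0.70 (SE, adjusted p = 0.519, limma). Next came Krtap11-1, Krtap9-3, Krtap4-1 and Krt34, with log2 fold changes of -1.42, -1.56, -1.47 and -1.81 and adjusted p of 0.52 to 0.528 by limma. In each of these 5 the WT mean came from WT-9097 and WT-9098, and WT-9229 was at 0. Krt71 had 43.4 ± 15.6 CPM in Shh and 91.4 ± 86.4 CPM in WT wounds (log2 fold change 0.22 ± 1.26 SE, above 0 although the Shh mean was the lower, with WT-9229 at 1.87 CPM) and Krt73 32.3 ± 4.5 against 24.2 ± 15.1 CPM (0.66 ± 0.53 SE). The members' median was 0.07 without WT-9098, when 40 members had a read, beside 0.30 for all genes. Without WT-9229 it was -0.61, beside 0.16 for all genes. Other cell markers also differed between these libraries. Bulge and outer root sheath markers summed to 800, 803 and 2411 CPM in WT-9097, WT-9098 and WT-9229 and to 1533 to 2723 CPM in Shh wounds. Most of this sum was Krt6a, Krt16 and Krt17 (1094, 1029 and 261 CPM in WT-9229). The rest of the list did not rise alike. In WT-9097, WT-9098 and WT-9229, Sox9 had 43.7, 49.2 and 21.5 CPM and Lgr5 8.82, 1.5 and 0.468 CPM. Lhx2 had 0, 4.08 and 0 CPM and Cd34 0, 0 and 4.22 CPM. Melanocyte markers summed to 13.1 to 19.7 CPM in WT and 52.7 to 93.3 CPM in Shh wounds. The part of these markers in the members' values was not tested.

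Companion genes gave no call between Shh and WT wounds in either tissue. This held for 14 regulators of the matrix and shaft (Hoxc13, Foxn1, Foxq1, Lef1, Msx1, Msx2, Dlx3, Gata3, Ovol1, Prdm1, Vdr, Elf5, Bmpr1a and Cux1) and for 11 other genes of shaft and sheath (Tchh, Tchhl1, Gprc5d, Dsg4, Dsc2, Padi1, Padi3, S100a3, Tgm3, Hephl1 and Crym). Tchh had 587, 374 and 17.8 CPM in WT and 84.5, 137 and 77.2 CPM in Shh wound epidermis, the same order of libraries within WT as Krt71.

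E14.5 skin was next compared with wounds. In dermis, 4 of 47 members (8.51%) were called against WT wounds and all 4 were lower in E14.5, where 6.63% of 19732 genes were lower, so that the share of members was near that of all genes. No member was higher, where 49.4% of genes were. Krt71 was at 0 to 0.124 CPM in the 4 E14.5 libraries and at 7.82 to 660 CPM in WT wounds, without overlap, as were 6.99% of all genes in this direction (log2 fold change -5.26 ± 1.33 SE, adjusted p = 0.0096, limma). Krt75 had no read in E14.5 dermis and 1.42 to 15 CPM in WT wounds, a mean at least 141-fold higher against a limit of 3 reads over the group, or at least 35.5-fold without WT-9097 (adjusted p = 0.0129, limma). Krt25 (log2 fold change -4.71 ± 1.28, adjusted p = 0.0135) and Krt27 (-3.87 ± 1.32, adjusted p = 0.0342) completed the list, both by limma. The same 4 were called without WT-9097, where 1156 of 19691 genes were lower. Their log2 fold changes were then -3.23, -1.33, -2.76 and -1.85 for Krt71, Krt75, Krt25 and Krt27. The members' median was -1.18 and that of all genes 0.78. Without WT-9097 it was -0.12 over the 25 members with a read. With TMM scaling all genes split into 5024 higher and 2759 lower in place of 9741 and 1309, and 4 members were lower.

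The count moved with the tool and with WT-9229. On recovered reads edgeR called 46 of 47 members lower in E14.5 dermis, all but Krt84, where 17.8% of genes were lower. Without WT-9229 limma called 14, where 2121 of 19729 genes were lower. Krt73, Krt26, Krt35, Krtap12-1, Krt28, Krt39, Krtap17-1, Krt32, Krtap8-1 and Krt36 were called in addition. For most members the WT mean is that of WT-9097 alone, and only Krt71, Krt25, Krt27 and Krt75 had reads in all 3 WT dermis libraries.

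Shh wound dermis gave a narrower spread. Against it 8 of 36 members tested were lower in E14.5, where 8.08% of 19734 genes were lower, and none was higher (42.5% of genes). All 4 type I root sheath keratins, 3 of the 4 type II root sheath and companion layer keratins (Krt71, Krt73 and Krt75) and 1 of 9 type I shaft keratins (Krt35) passed, and none of 15 keratin-associated proteins or 4 type II shaft keratins. Krt73 had 2.95, 4.75 and 14.3 CPM in Shh wounds and no read in 70589891 pooled reads of E14.5 dermis, at least 172-fold lower by means, or at least 90.6-fold without Shh-9233 (adjusted p = 0.00105, limma). For Krt25 the log2 fold change was -3.80 ± 0.64 (SE, adjusted p = 0.00171) and for Krt71 -4.32 ± 0.74 (adjusted p = 0.00178), both by limma. Krt75 (-1.46), Krt28 (-1.95), Krt27 (-2.76), Krt35 (-1.40) and Krt26 (-1.86) had limma adjusted p between 0.00202 and 0.0436. In all 8 the groups did not overlap. This was so, lower in E14.5, for 9 of the 36 members tested and for 9.19% of all genes. Only Krt71 and Krt25 were called when WT wounds joined the fit (1281 of 19759 genes lower), and 5 members with a pseudocount of 5 (1634 of 19734). With TMM scaling 7 members were lower and all genes split into 4680 higher and 2984 lower in place of 8393 and 1594. The members' median was -0.13, all genes 0.61.

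In epidermis E14.5 was lower than WT wounds for 9 of 42 members tested, with 11.4% of 19751 genes lower, and higher for none (47.7% of genes). Krt73 had 0.0606 to 0.428 CPM in E14.5 and 7.03 to 34.9 CPM in WT epidermis (log2 fold change -4.07 ± 0.55 SE, adjusted p = 0.000453, limma). Krtap12-1 had 0.306 to 0.814 CPM in E14.5 and 3.54 to 9.01 CPM in WT (-2.03 ± 0.36, adjusted p = 0.00167, limma), and Krt71 0.122 to 0.606 CPM against 1.87 to 174 CPM (-4.79 ± 1.27, adjusted p = 0.0119, limma). These 3 did not overlap between the groups. They were 7.14% of the members tested, where 11.9% of all genes were lower in E14.5 without overlap. The other 6 (Krt25, Krtap11-1, Krt26, Krt28, Krt35 and Krt33a) had limma adjusted p of 0.033 to 0.0483 and overlapped through WT-9229, where each was at 0. The count was 19 without WT-9229 (2564 of 19740 genes lower), 5 without WT-9097 (2940 of 19744) and 2 without WT-9098 (2162 of 19689). It was 3 without any 1 of the E14.5 libraries (1922 to 1966 genes lower), and edgeR called 30 lower where it called 18.6% of genes lower. With TMM scaling it was 7, and all genes split into 6638 higher and 3223 lower in place of 9425 and 2255. The median was -0.70 for members and 0.66 for all genes.

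Shh wound epidermis, the tightest wound group, gave the most calls. Against it 14 of 41 members tested were lower in E14.5, where 19.6% of 19775 genes were lower, and none was higher (51.7% of genes). The 7 root sheath and companion layer keratins other than Krt74 all passed. Krt73 had 32.3 ± 4.5 CPM (SD, n = 3) in Shh wounds and 0.249 ± 0.15 CPM (n = 4) in E14.5 (log2 fold change -4.74 ± 0.20 SE, adjusted p = 9.23e-09, limma). Krt25 had 24.2 ± 5.84 CPM and no read in 64488759 pooled E14.5 reads, at least 519-fold lower by means (adjusted p = 1.39e-08, limma). Krt71 had 43.4 ± 15.6 against 0.34 ± 0.206 CPM (-5.01 ± 0.25, adjusted p = 3.09e-08, limma). Of the shaft keratins Krt35 (-2.20), Krt32 (-1.43), Krt84 (-1.32), Krt82 (-0.81) and Krt83 (-0.33) passed, and of 19 keratin-associated proteins tested Krtap12-1 (-1.57) and Krtap3-2 (-0.73). The groups did not overlap for 13 of the 14, Krt83 being the exception. Over all tested, called or not, 14 of 41 members (34.1%) and 18.9% of genes were lower in E14.5 without overlap. The count of called members was 9 when WT wounds joined the fit, where 2841 of 19785 genes were lower. Krt27 was called too (-2.44 ± 0.40, adjusted p = 0.000213, limma) though it was the root sheath keratin with the most reads in E14.5 epidermis, at 1.09, 1.82, 0 and 2.94 CPM. All of these calls are over a shift of the whole table, as the median fold change of genes with at least 50 CPM was 0.52 here and -0.07 after TMM scaling, when 15 members were lower and all genes split into 7067 higher and 6057 lower in place of 10223 and 3869.

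**Figure D3:**
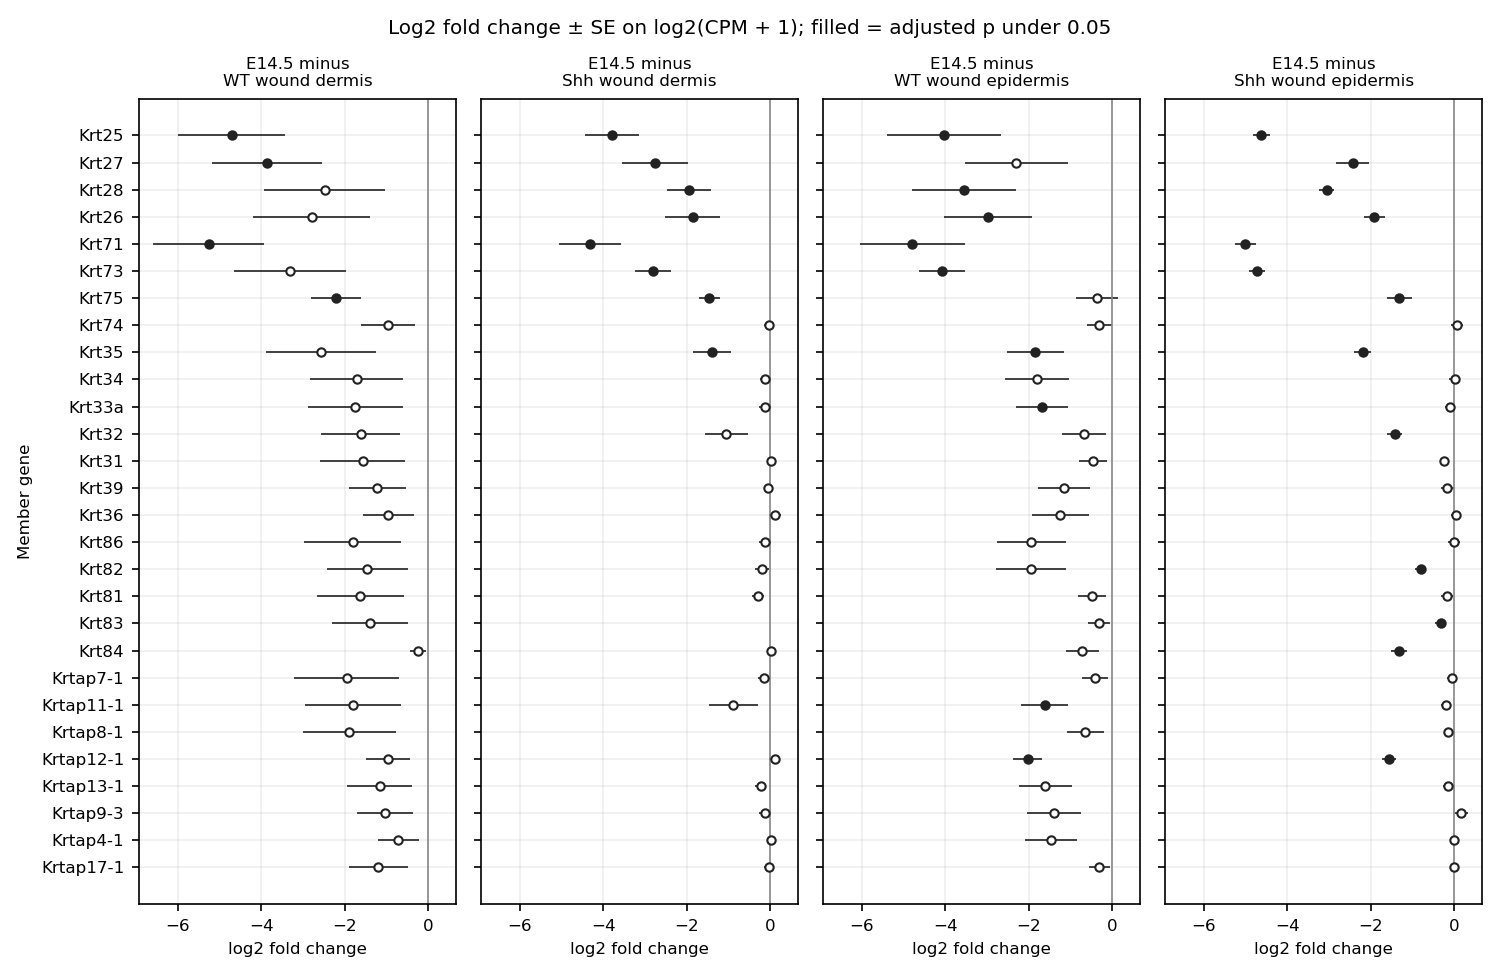
Log2 fold change, with its SE, of the 28 named members in E14.5 skin relative to WT and Shh wounds of each tissue, on log2(CPM + 1), with filled points where the limma adjusted p was under 0.05. The filled points are mostly root sheath keratins (upper rows), the error bars of the root sheath keratins are wider against WT than against Shh wounds, and no filled point lies above 0.

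The companion genes split in E14.5 epidermis. Against Shh wounds 8 of 11 shaft and sheath genes were lower and 1, Dsc2, was higher, while of 14 regulators 7 were lower and 5 higher. Of all genes 19.6% were lower and 51.7% higher in that comparison. Lef1, a transcription factor of Wnt signalling, was among the regulators that were higher (4.87 on the log2 scale, with 4.63 to 6.84 CPM in Shh wounds), as were Cux1, Elf5, Bmpr1a and Gata3. Hoxc13 (-1.38), Foxn1 (-0.64), Dlx3 (-2.67) and Prdm1 (-5.35) were lower. Against WT wound epidermis 5 of 11 shaft and sheath genes were lower and 1 higher, and of the regulators 6 were lower and 4 higher. There 11.4% of all genes were lower and 47.7% higher. In dermis 1 of 11 shaft and sheath genes was lower against WT and 3 against Shh wounds, with 1 higher in each. Of the 14 regulators 1 (Vdr) was lower and 2 (Lef1 and Bmpr1a) higher in each. All genes were lower for 6.63% and higher for 49.4% against WT, and for 8.08% and 42.5% against Shh wounds.

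Wound epidermis was also set against wound dermis. Over 12 libraries, with genotype in the fit, 2 of 47 members were called and both were higher in epidermis, where 24% of 19722 genes were higher. None was lower (17.2% of genes). Krtap12-1 had 3.07 to 9.01 CPM in the 6 epidermal libraries, 5.01 and 0.533 CPM in WT-9097 and WT-9098 dermis and 0 in the other 4 dermal libraries (log2 fold change 1.82 ± 0.44 SE, adjusted p = 0.00355, limma). It was higher in epidermis for all 6 wound numbers. Apart from WT-9097 its epidermal values, 3.07 to 3.75 CPM, were nearly level, WT-9229 included. Reads of unspliced Tspear RNA could be counted with Krtap12-1, and their part in these values was not tested. Krt84, a type II hair keratin that is also made in the filiform papillae of the tongue, had 0, 1.09 and 2.81 CPM in WT epidermis and 1.48, 1.74 and 3.07 CPM in Shh epidermis, and 0.715 CPM in WT-9097 dermis with no read in the other 5 (1.17 ± 0.32, adjusted p = 0.00875, limma). It was higher in epidermis for 5 of 6 numbers, and it and Krtap12-1 were 2 of only 5 members seen in WT-9229 epidermis, with Krt71, Krt73 and Krt74.

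No root sheath keratin was called between the tissues. Krt73 was higher in epidermis for 5 of 6 numbers, all but WT-9097 (1.65 ± 0.88, adjusted p = 0.15, limma). Krt71 was higher in epidermis in WT-9098, Shh-9101 and Shh-9231 and higher in dermis in WT-9097, WT-9229 and Shh-9233 (0.46 ± 1.12, adjusted p = 0.77, limma). With dermis and epidermis of 1 number paired by a replicate block, 4 members were called, where 24.6% of genes were higher: Krtap12-1, Krt84, Krtap3-2 (adjusted p = 0.0366) and Krt73 (1.65, adjusted p = 0.0458), all by limma. When the 3 numbers with a library of few detected genes were left out (WT-9097, WT-9229 and Shh-9233, an alternative chosen after the data were seen), 16 of 43 members were called and all were higher in epidermis, where 28.5% of genes were, Krt73 (2.57), Krt71 (2.58) and Krt25 (2.10) first, over 3 numbers. In the main fit, where 24% of genes were higher in epidermis and 17.2% lower, keratinocyte markers were higher for 8 of 8 genes. Of the 14 regulators 11 were higher and of the 11 other shaft and sheath genes 3 (Padi1, Tgm3 and Hephl1), with none lower.

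**Figure D4:**
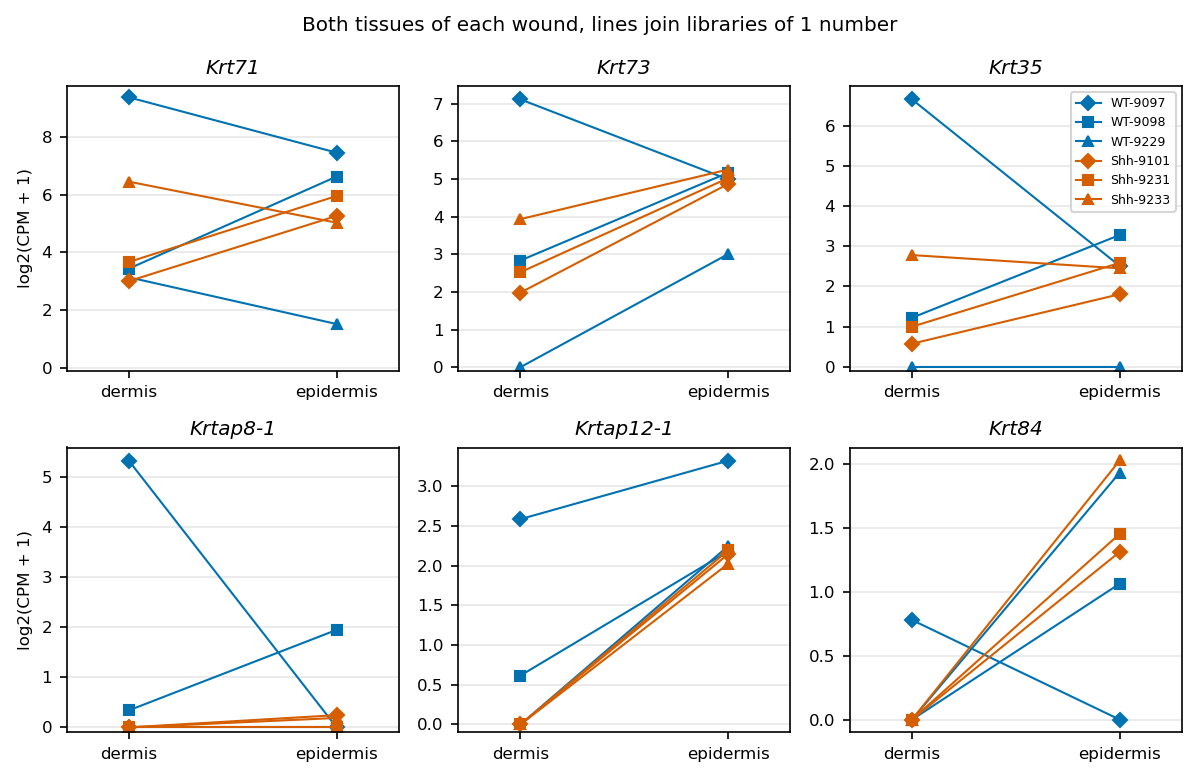
Level of 6 members in dermis and epidermis of the 6 wound numbers, as log2(CPM + 1), with a line joining the libraries of each number and a separate vertical scale in each panel. Krtap12-1 rises from dermis to epidermis in all 6, Krt84 in all but WT-9097, and Krt71, Krt35 and Krtap8-1 fall in WT-9097 while they rise in WT-9098.

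Whether the Shh against WT difference itself differed between the tissues was tested as an interaction over the 12 wound libraries. No member of 47 was called, and no gene of 19722 (0% in either direction). Without adjustment 0 members and 678 genes were under 0.05, and edgeR and DESeq2 called no member (6 and 2 under 0.05 before adjustment, 12.8 and 4.26% of members, against 4.5 and 4.95% of all genes). The 5 smallest p among members with a mean of at least 1 CPM were those of Krt75, Krt83, Krt31, Krtap8-1 and Krtap7-1, with log2 differences, Shh minus WT in epidermis less that in dermis, of 1.71, 1.41, 1.36, 1.38 and 1.44 (adjusted p = 0.952 each, limma). Without WT-9097 the last 4 were -0.10, -0.47, -0.66 and -0.72, and Krt75 was 0.45.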

How the data were processed

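Ribosomal RNA-depleted total RNA was sequenced by the authors as paired 50-base ends from stranded libraries. The deposited values are CPM per gene and library, made by the authors from gene counts. Bowtie, SAMtools and HTSeq are named in the submitters' processing notes, on build NCBIM37, with versions not given in the sources used here. Each library summed to the same total, and 100% of values were whole multiples of 1 read (tolerance 0.01), which gave reads. The same tables hold the authors' fold changes and p-values, which were not used. In 1 list that was not used, 1 column matched no sample.

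All genes with at least 1 read in the libraries of a comparison were tested by limma 3.58.1 (R 4.3.3) with a variance trend on log2(CPM + 1), with only the compared groups in the fit, Benjamini-Hochberg over all genes and a threshold of 0.05. Fold changes on this scale understate the change of low genes. Alternatives were pseudocounts 0.25 and 5, a mean of at least 1 CPM, no trend, TMM scaling, count models on the recovered reads (edgeR 4.0.16, DESeq2 1.42.0), a fit of all 3 groups of a tissue together, a replicate block, and each replicate left out. The fits were tested on simulated data with the same spread setting for every gene, and only genes above a set level were changed. This does not show how the fits act on members at low levels or with a single high library. Intervals cover counting error only. Members and gene lists were chosen with earlier results of these data known. Named are the 5 most abundant members of each family, up to 8 called members per comparison by adjusted p (5 by p where none was called, with a mean of at least 1 CPM), Krt71 and Krt75, and further members where a count is spelled out.

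Equal numbers in dermis and epidermis were read as the same source, 1 animal or 1 pool. Over 16236 genes, deviations from group means of the 2 libraries of a number correlated at -0.00188 to 0.33 in the 6 wound numbers. For WT-9097, Shh-9231 and Shh-9233 the highest correlation with another number exceeded this (0.0299 against 0.0227, 0.0467 against -0.00188 and 0.148 against 0.0902). For WT-9098, WT-9229 and Shh-9101 it was lower. The pairing in the replicate block and in the tallies by number thus rests on the labels.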

Additional observations from a re-analysis of the deposited data

Results flagged for a closer look

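In 6 cases a single E14.5 library had reads of a named member while the other 3 of its group had none, with at least 3 reads in the library concerned. In E14.5-4 dermis these were Krtap12-1 (0.331 CPM, 6 reads), Krt35 (0.166 CPM, 3 reads) and Krt82 (0.166 CPM, 3 reads). In E14.5-7 dermis it was Krt36 (0.399 CPM, 7 reads), in E14.5-3 dermis Krtap17-1 (0.16 CPM, 3 reads), and in E14.5-7 epidermis Krt82 (0.188 CPM, 3 reads). In all, 25 groups were examined. Chance flags about 1 in 20 groups of continuous values, a rate that does not apply here, since any library with reads stands apart by construction where the other 3 are at 0. Values of a few reads are set largely by counting error.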

How the results depend on the processing

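Of 670 alternative values for named members, 590 kept direction and side of the threshold, 71 kept direction but lost the call, and 9 reversed. Of 121 alternative counts of members called, 96 stayed within 1.5 times. Members not called in either setting are among those kept, as are counts that stayed at 0. Shh against WT in both tissues and the interaction had no call to lose, so these totals overstate how stable the calls are. For E14.5 against WT wound dermis (4) the count was 1 with pseudocount 5, where 1332 of 19732 genes were lower. It was 46 with edgeR and 24 with DESeq2, where 3512 and 3979 genes were lower. With 1 library left out it was 3 to 14, the 14 without WT-9229, where 2121 of 19729 genes were lower. For E14.5 against WT wound epidermis (9) it was 4 without the variance trend, where 2193 of 19751 genes were lower. It was 30 with edgeR and 21 with DESeq2, where 3670 and 4125 genes were lower. When Shh wounds joined the fit it was 16, where 2448 of 19785 genes were lower. With 1 library left out it was 2 to 19, the 19 without WT-9229, where 2564 of 19740 genes were lower. For E14.5 against Shh wound dermis (8) it was 5 with pseudocount 5 and 13 with edgeR, where 1634 and 3421 of 19734 genes were lower. When WT wounds joined the fit it was 2, where 1281 of 19759 genes were lower. With 1 library left out it was 6 to 10, the 10 without Shh-9233, where 2671 of 19732 genes were lower. For E14.5 against Shh wound epidermis (14) it was 9 when WT wounds joined the fit, where 2841 of 19785 genes were lower. With 1 library left out it was 13 to 15, the 15 without Shh-9101, where 4005 of 19759 genes were lower. For epidermis against dermis (2) it was 1 with a mean of at least 1 CPM, where 4632 of 15340 genes were higher. With edgeR it was 6 (2 higher, 4 lower), beside 3530 higher and 4189 lower of 19722 genes. It was 0 in WT wounds alone, a fit of fewer libraries, and 2 to 4 with 1 number left out. The shares of all genes in these fits are not given here, so these counts are not read as a result about the members. Without WT-9097, WT-9229 and Shh-9233, a setting chosen after the data were seen, the count was 16, where 28.5% of genes were higher. The paired fit with a replicate block called 4 for epidermis against dermis and 0 for the interaction, and changed no other call. The causes were not tested.

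The reversed values are all of the interaction, where no member was called. Without the same 3 numbers Krt75, Krt83, Krt31, Krtap8-1 and Krtap7-1 were at -0.53, -0.69, -1.17, -1.48 and -1.42. With 1 number left out their ranges were 0.45 to 2.86, -0.10 to 2.45, -0.47 to 2.64, -0.66 to 2.81 and -0.72 to 2.86. TMM scaling moved the median of genes with at least 50 CPM from 0.91 to 0.12 and from 0.61 to 0.08 (E14.5 against WT dermis and epidermis), and from 0.77 to 0.13 and 0.52 to -0.07 (against Shh). Genes higher and lower in E14.5 then numbered 5024 and 2759, 6638 and 3223, 4680 and 2984, and 7067 and 6057, and members lower 4, 7, 7 and 15. Depth limits members listed at 0, since 3 reads are 1.41 CPM in WT-9229 epidermis and 2.13 CPM in WT-9229 dermis.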
